A study of Mus musculus with 4 samples.

Results

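The Wnt ligands, their receptors and their secreted antagonists were taken by gene symbol: every Wnt, Fzd, Sfrp and Dkk gene, with Lrp5, Lrp6 and Frzb. The rule, which used no measured value, found 40 genes of the 32285 in the single-cell tables. They comprised 19 ligands, 10 frizzled receptors, 2 co-receptors, 5 antagonists of the secreted frizzled-related (SFRP) family with Frzb counted among them, and 4 genes of the Dickkopf (DKK) family. For the tissue sections, 39 of the members were among 19465 genes, and Fzd5 was not. The level of each member was read in 7 cell classes and 7 kinds of tissue spot.

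Wnt proteins are secreted, lipid-bearing signals that are acylated by Porcn and carried to the cell surface by Wls. They bind a frizzled receptor, which acts together with Lrp5 or Lrp6 in the branch that stabilises β-catenin, or with Ror and Ryk receptors in the branches that do not. SFRP proteins and Frzb resemble the ligand-binding part of a frizzled and bind Wnts outside the cell, whereas Dkk1 and Dkk2 bind Lrp5 and Lrp6. In tendon, cartilage and bone the pathway is known for its part in progenitor choice and in bone formation.

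All mice had burn/tenotomy, in which a skin burn is combined with a cut tendon and bone later forms in the wound, and all were sampled 7 days after it. The 2 single-cell libraries hold unsorted cells of the injured tendon site from mice labelled Hoxa11CreER;ROSA-LSL-TdTomato;Hif1a fl/fl, in which a tamoxifen-driven Cre under Hoxa11 labels and recombines cells of the distal limb mesenchyme. Per the labels, tamoxifen was given at 75 mg/kg for 5 days, followed by a washout of 9 days. Replicates 1 and 2 were deposited as a single pooled library, whereas replicate 3 has its own. The 2 Visium sections, A1 and B1, are from wild-type C57BL/6 mice aged 10 weeks. The labels do not state which mice lie behind a replicate or whether A1 and B1 are different animals, so that p-values measure the spread between these libraries or sections, which may be technical. The labels do not state which cells or mice of these libraries carried Cre or were recombined by it, so that no value below compares Hif1a-deleted with intact cells.

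Levels are given as CPM, the UMIs of a gene per 1000000 UMIs of its cell class or spot group in each library or section, with exact Poisson 95% intervals that cover counting error only. After quality filters, 1260 cells of the pooled library and 780 cells of replicate 3 were kept, and they had medians of 13422 and 17528 unique molecular identifiers (UMIs). No barcode was shared among the kept cells. Cells were gated on fixed markers, none of which is a member, into mesenchymal progenitor (MPC)-like cells (219 in the pooled library and 162 in replicate 3), fibroblast-like cells (82 and 75), endothelial-like cells (88 and 48), smooth muscle- or pericyte-like cells (97 and 53), macrophage-like cells (181 and 98), T- or NK-like cells (134 and 39) and keratinocyte-like cells (69 and 51). The 11 MPC markers, part of what the gates used, together stood at 17934 and 17987 CPM in MPC-like cells against 4409 and 5503 in fibroblast-like cells, and the 12 fibroblast markers at 2150 and 2619 against 7729 and 7892. The 8 chondrocyte markers summed to 896 and 567 CPM in MPC-like cells and to 48 and 35 in fibroblast-like cells. Hif1a, the floxed gene, was read at 473 and 374 CPM in MPC-like cells, but a 3′ tag need not lie in the floxed part, so that this level does not check the genotype. Sections A1 and B1 had 3555 and 3195 spots with medians of 454 and 516 UMIs.

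Of the members, 31 had at least 30 UMIs over the kept cells, 7 had 1 to 29, and Dkk4 and Wnt8b had 0. In the 7 classes, 28 members passed the low-count filter of the tests and the other 12 were described only. Among those 12 were the ligands Wnt10b, with 34 UMIs in the pooled library and 20 in replicate 3, Wnt2b with 8 and 6, Wnt1 with 2 and 5, Wnt3a with 1 and 1, Wnt7a with 1 and 0 and Wnt9b with 0 and 1.

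An antagonist, a ligand and a receptor are shown with the sequence just before their start, because each was high in a different set of cells: Sfrp2 in the MPC- and fibroblast-like cells, Wnt4 in the keratinocyte-like cells, and Fzd4 in the endothelial-like and smooth muscle- or pericyte-like cells. The stretches are from RefSeq's table of starts (GRCm38.p6), all on the plus strand, and end before the first annotated base of the gene: chr3:83766071-83766320 before Sfrp2 (gene at chr3:83766321-83774316), chr4:137277385-137277488 before Wnt4 (chr4:137277489-137299726) and chr7:89404116-89404354 before Fzd4. No annotated exon overlaps them. Capitals mark the words ACGTG or GCGTG on either strand, the core of the hypoxia response element.
Sfrp2: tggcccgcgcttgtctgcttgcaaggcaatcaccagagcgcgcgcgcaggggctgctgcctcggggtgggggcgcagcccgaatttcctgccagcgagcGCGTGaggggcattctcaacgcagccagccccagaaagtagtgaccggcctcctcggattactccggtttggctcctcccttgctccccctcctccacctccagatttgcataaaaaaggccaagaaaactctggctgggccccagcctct
Wnt4: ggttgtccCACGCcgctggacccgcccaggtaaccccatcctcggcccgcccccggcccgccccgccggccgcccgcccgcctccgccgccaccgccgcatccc
Fzd4: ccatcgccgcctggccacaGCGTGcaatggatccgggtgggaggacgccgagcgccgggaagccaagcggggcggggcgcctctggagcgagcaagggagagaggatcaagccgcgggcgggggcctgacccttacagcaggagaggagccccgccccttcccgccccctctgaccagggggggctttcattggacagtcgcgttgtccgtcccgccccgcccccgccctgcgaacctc

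Each stretch held 1 such word. Windows from 250 bases before to 50 bases after a start were available for 26 members, in 29 windows. Only the 250 bases before the start were searched. There, 16 of the 29 windows (55.2%) held ACGTG or GCGTG, beside 38.6% of all 32851 windows in the table. The TCF/LEF core, for which CTTTGAA and also CTTTGAT were searched on both strands, as were CTTTGTA and also CTTTGTT, was found in 4 of the 29 windows (13.8%) and in 14.8% of all windows. None of the printed stretches held it. A CACGTG holds ACGTG on both strands, so that matches can overlap. These are matches of letters only. The members without a window were Dkk3, Dkk4, Fzd2, Fzd3, Fzd6, Fzd8, Lrp5, Lrp6, Sfrp1, Sfrp4, Wnt10a, Wnt5a, Wnt7b and Wnt8a.

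The first question was which cells hold which part of the pathway. Antagonists were high in MPC- and fibroblast-like cells, the ligands in these and in keratinocyte-like cells, and receptors were found in every tested class. The 5 SFRP genes summed to 2717 CPM (2650.0 to 2786) in the fibroblast-like cells of the pooled library and 1549 CPM (1499.5 to 1599) in those of replicate 3, and to 1081 and 785 CPM in MPC-like cells. In keratinocyte-like cells the sum was 98.1 and 100.5 CPM, and in the other 4 classes it lay between 0.938 and 10.3 CPM. The ligands summed to 312 and 241 CPM in keratinocyte-like cells, 154 and 136 in fibroblast-like cells and 85.4 and 68.8 in MPC-like cells, with both libraries in the same order. The 8 hair-follicle-mesenchyme-like cells of the pooled library, too few to test, held SFRP genes at 12.0 CPM (3 UMIs) and ligands at 337 CPM. Frizzleds with Lrp5 and Lrp6 summed to between 265 and 538 CPM in MPC-, fibroblast-, endothelial- and smooth muscle- or pericyte-like cells, 191 and 234 in keratinocyte-like cells, 117 in macrophage-like cells of either library, and 54.9 and 49.7 in T- or NK-like cells.

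**Figure D1:**
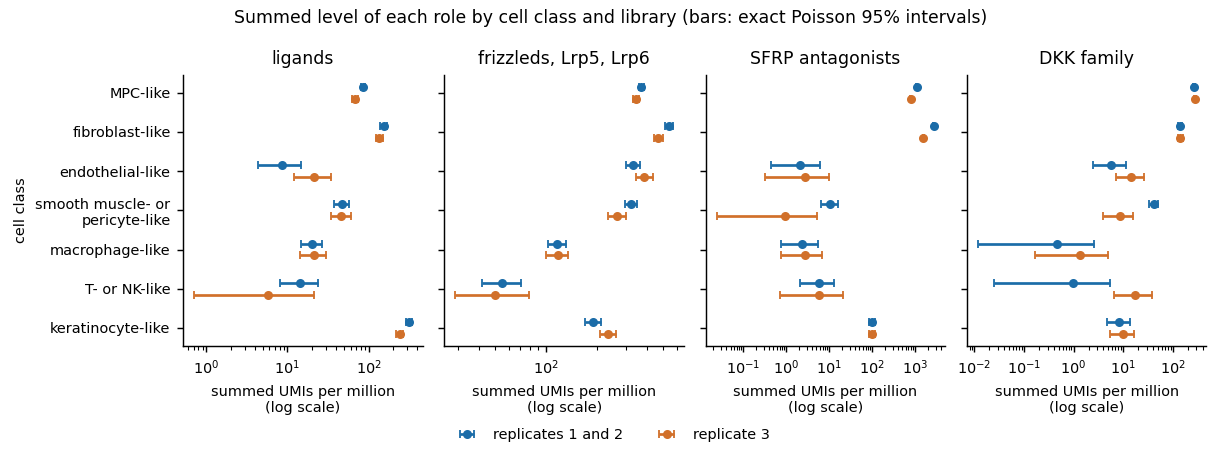
Summed CPM (log axis) of the ligands, of the frizzleds with Lrp5 and Lrp6, of the SFRP antagonists and of the DKK family in each cell class, 1 point per library with its exact Poisson 95% interval. SFRP sums are above 700 CPM in both mesenchymal classes shown and below 11 CPM in 4 other classes, whereas the receptor sums stay above 45 CPM everywhere.

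Across the classes, edgeR's quasi-likelihood test with Benjamini-Hochberg adjustment called 27 of the 28 tested members, beside 86.7% of all 12526 genes tested; a member that passed the filter through 1 class had to differ. The exception was Fzd5, a receptor with adjusted p = 0.0740, which lay between 7.97 and 30.8 CPM in all classes of both libraries. In the contrasts of 1 class with the mean of the others, 17 of the 28 were higher in MPC-like cells (32.2% of all genes), 21 in fibroblast-like cells (28.5%), 15 in keratinocyte-like cells (26%), 7 in smooth muscle- or pericyte-like cells (22.3%), 4 in endothelial-like cells (19.4%), 2 in macrophage-like cells (25.6%) and 1, Fzd5, in T- or NK-like cells (21.6%). Lower than the mean of the others were 1 in MPC-like (14.8%), 0 in fibroblast-like (10.5%), 3 in keratinocyte-like (19.8%), 1 in smooth muscle- or pericyte-like (11.1%), 2 in endothelial-like (11%), 5 in macrophage-like (18.8%) and 8 in T- or NK-like cells (20.3%). Over all genes the median of these contrasts was 0.11 on the log2 scale for MPC-like, -0.13 for macrophage-like and -0.24 for T- or NK-like cells, and within 0.10 of 0 for the rest.

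**Figure D2:**
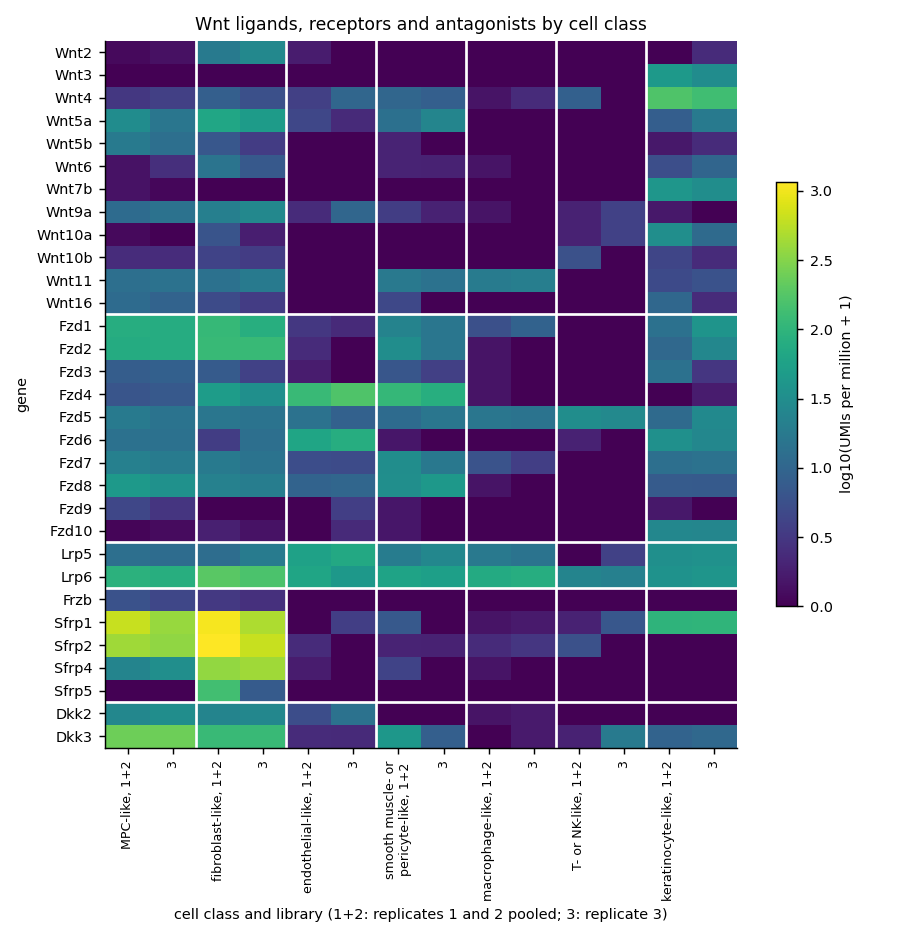
Colour gives log10(CPM + 1) of the 31 members with at least 30 UMIs (vertical axis, by role) in 7 cell classes (horizontal axis), with the pooled library and replicate 3 side by side. Wnt3, Wnt4, Wnt7b and Fzd10 stand out in keratinocyte-like cells, the Sfrp genes in the 2 mesenchymal classes shown, and Fzd4 and Fzd6 in endothelial-like cells.

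Among the ligands, Wnt4 was read at 166 CPM (148 to 186) and 133 CPM (114 to 153) in keratinocyte-like cells and at no more than 9.30 CPM in any other class. Wnt3, a ligand of the β-catenin branch, was at 44.4 and 29.998 CPM in keratinocyte-like cells and had 0 UMIs in the other 6 classes. Wnt7b was at 39.4 and 30.7 CPM there, and Wnt10a at 31.6 and 10.5. The 4 ligands passed edgeR's test as higher in keratinocyte-like cells against the mean of the other classes, and Wnt3 did not pass with DESeq2. After thinning every cell to 3000 UMIs, Wnt4 was found in 42.1% (30.2 to 55.0, Wilson) of the keratinocyte-like cells of the pooled library and 25.6% (14.6 to 41.1) of those of replicate 3, against 71 and 60.8% unthinned and 0 and 1.27% of thinned MPC-like cells.

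Wnt5a, the best known ligand of the branches without β-catenin, was at 64.2 and 46.8 CPM in fibroblast-like cells, 29.6 and 14.9 in MPC-like cells and 12.4 and 23.4 in smooth muscle- or pericyte-like cells. Its close relative Wnt5b was at 17.2 (14.7 to 19.996) and 12.0 (9.72 to 14.6) CPM in MPC-like cells and at 5.72 and 2.49 in fibroblast-like cells. Wnt2 had 16.7 and 26.1 CPM in fibroblast-like cells and 2 and 3 UMIs in MPC-like cells. Wnt9a was at 20.2 and 26.1 CPM in fibroblast-like and 10.9 and 13.2 in MPC-like cells. Wnt11 was the only ligand called as higher in macrophage-like cells, at 17.7 and 19.6 CPM, but stood at like levels in fibroblast-like cells (12.8 and 16.6) and in MPC-like cells (12.0 and 13.2). Wnt16 was at 10.6 and 8.43 CPM in MPC-like cells, and 70.1% and 55.8% of all its UMIs lay in 10 cells of a library.

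Receptors split by class. Fzd1 was at 80.1 and 78.5 CPM in MPC-like and 111 and 82.9 in fibroblast-like cells, and Fzd2 at 75.8 and 77.0 against 114 and 115. In keratinocyte-like cells the same receptors stood at 12.8 and 37.7 CPM and at 9.98 and 25.1 CPM, with replicate 3 higher for both. Fzd4, the receptor through which norrin and Wnts act on vessels, was at 119 (102 to 139) and 163 (136 to 195) CPM in endothelial-like cells and 109 and 81.6 CPM in smooth muscle- or pericyte-like cells, against 5.36 and 6.23 in MPC-like cells. Fzd6 was at 62.9 and 81.1 CPM in endothelial-like cells and 33.3 and 25.1 in keratinocyte-like cells. Fzd10 was at 24.9 and 24.4 CPM in keratinocyte-like cells and had at most 2 UMIs in any other class of a library. Fzd8 was at 43.3 and 34.8 CPM in MPC-like and 32.0 and 42.2 in smooth muscle- or pericyte-like cells, an order that differs between the libraries. Fzd7 stood at 20.7 and 17.97 CPM in MPC-like, 17.2 and 13.7 in fibroblast-like, 31.0 and 15.9 in smooth muscle- or pericyte-like and 12.2 and 13.3 in keratinocyte-like cells, with 0 UMIs in T- or NK-like cells of either library. It was called as higher in those 4 classes (log2 fold changes of 2.40, 2.02, 2.49 and 1.73 against the mean of the others) and did not pass between MPC- and fibroblast-like cells (adjusted p = 0.434 with edgeR).

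The co-receptors behaved differently from each other. Lrp6 was found in every class, between 20.4 CPM in T- or NK-like cells of replicate 3 and 189.7 CPM in fibroblast-like cells of the pooled library. Lrp5 was at 55.8 (44.2 to 69.6) and 70.4 (52.8 to 92.1) CPM in endothelial-like cells and 32.2 and 34.2 in keratinocyte-like cells, called as higher than the mean of the other classes in both, and at 12.0 and 11.2 CPM in MPC-like cells.

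Of the antagonists, Sfrp1 was at 1059 CPM (1017 to 1102) in fibroblast-like cells of the pooled library and 484 CPM (456 to 512) in those of replicate 3, and at 629.7 and 389.5 CPM in MPC-like cells. It was also found at 98.1 and 100.5 CPM in keratinocyte-like cells. Sfrp2 was at 1155 and 636 CPM in fibroblast-like and 423 and 360.4 in MPC-like cells, and had 0 UMIs in keratinocyte-like cells of either library. For both genes, the pooled library was higher than replicate 3 in both mesenchymal classes, with intervals that do not overlap. Thinned to 3000 UMIs a cell, Sfrp1 was found in 47.8% and 49.4% of MPC-like cells, 54.7% and 43.8% of fibroblast-like cells and 0 of 157 and 0 of 89 macrophage-like cells, which allows a share of up to 1.91% and 3.37%. Thinned macrophage-like cells had Sfrp4 and Dkk3 in 0 of 157 and 0 of 89 cells, and Sfrp2 in 0.637% and 1.12%.

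Sfrp4 set the mesenchymal classes apart more than Sfrp1 or Sfrp2, at 364 (339.5 to 389.6) and 421 (396 to 448) CPM in fibroblast-like cells and 23.2 and 31.4 CPM in MPC-like cells. Dkk3, a secreted Dickkopf relative that is not known to bind Lrp5 or Lrp6, had the opposite order, with 242 (233 to 252) and 244 (234 to 255) CPM in MPC-like cells and 117 CPM in fibroblast-like cells of either library. Dkk2 was at 25.5 and 30.8 CPM in MPC-like and 22.9 and 25.3 in fibroblast-like cells, with 10 or fewer UMIs in any other class. Frzb was at 4.86 and 3.54 CPM in MPC-like cells. Dkk1 had 7 and 2 UMIs over all kept cells.

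The study centres on MPCs, and fibroblast-like cells are the other mesenchymal class that could be tested, so that both were compared within each library. MPC-like cells held less Sfrp4, Sfrp2, Fzd4, Lrp6 and Wnt5a than fibroblast-like cells and more Dkk3, Fzd8 and Wnt5b. edgeR called 3 of the 28 tested members higher in MPC-like cells, beside 7.08% of all genes, and 10 lower, beside 10.7% of all genes. The median change of the members was -0.44 on the log2 scale, or -0.33 over the 23 members with more than 3 UMIs in both classes, and that of all genes was 0.03. All 13 had the same direction within the pooled library and within replicate 3. DESeq2 called 6 of the 13.

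**Figure D3:**
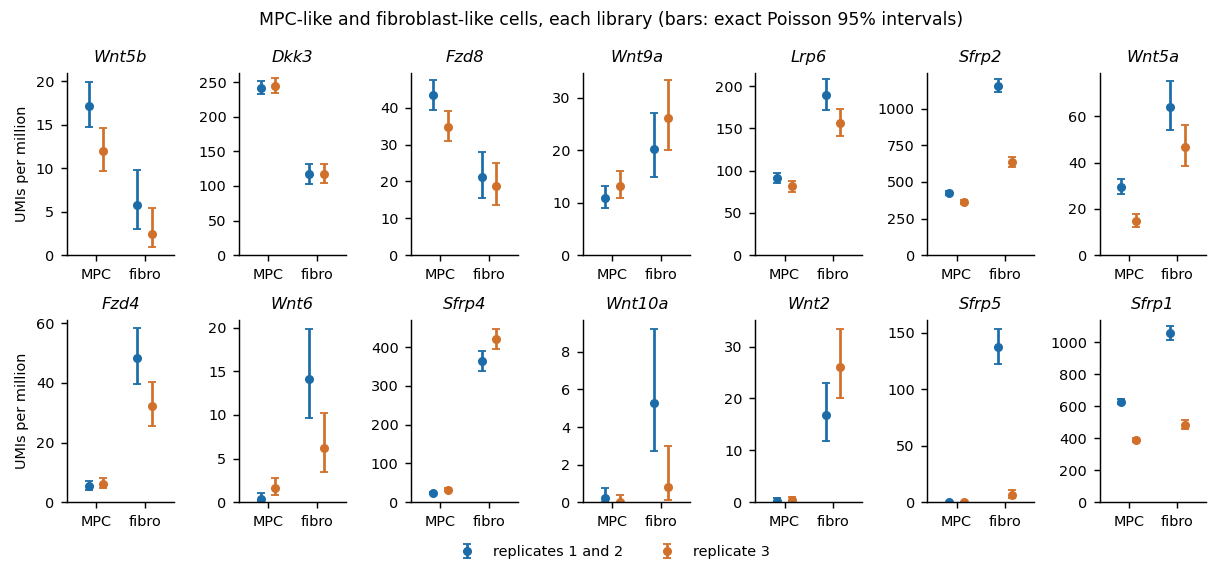
CPM (vertical axes from 0, each gene on its own scale) in MPC-like and fibroblast-like cells of the pooled library and of replicate 3, with exact Poisson 95% intervals, for the 13 members called in this comparison and for Sfrp1. Dkk3 is near 243 CPM in MPC-like and 117 CPM in fibroblast-like cells of both libraries, whereas Sfrp1 and Sfrp2 differ between libraries as well as between classes.

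Dkk3 was 2.07 times as high in MPC-like as in fibroblast-like cells of the pooled library and 2.09 times in replicate 3 (log2 fold change 1.05 ± 0.28 (SE), adjusted p = 0.0144 with edgeR). DESeq2 gave the same size with adjusted p = 0.574. Wnt5b was 3.01 and 4.82 times as high (1.84 ± 0.41, adjusted p = 0.00601 with edgeR and 0.247 with DESeq2). Fzd8 was 2.05 and 1.87 times as high (0.97 ± 0.21, adjusted p = 0.00432 with edgeR and 0.0489 with DESeq2), and did not pass with clusters in place of gates (adjusted p = 0.128, edgeR) or in thinned cells (0.297).

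Sfrp4 was 15.7 and 13.4 times as high in fibroblast-like as in MPC-like cells (log2 fold change -3.86 ± 0.21, adjusted p = 7.12e-09 with edgeR and 0.0974 with DESeq2). In thinned cells, Sfrp4 was found in 37.3% and 40.6% of fibroblast-like and 4.39% and 5.06% of MPC-like cells. Fzd4 was 9.02 and 5.18 times as high in fibroblast-like cells (-2.79 ± 0.26, adjusted p = 1.08e-06 with edgeR and 1.56e-12 with DESeq2). Lrp6 was 2.08 and 1.93 times as high there (-1.01 ± 0.15, adjusted p = 7.89e-05 with edgeR and 5.99e-09 with DESeq2).

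Sfrp2 was 2.73 times as high in fibroblast-like cells of the pooled library and 1.76 times in replicate 3 (-1.14 ± 0.17, adjusted p = 0.000173 with edgeR and 0.00658 with DESeq2). A few cells carried much of it: the 10 cells with the most Sfrp2 held 35.4% and 33.1% of its UMIs in the 2 libraries, and a single cell held 616. When every cell was thinned to 3000 UMIs so that each weighed the same, the change was -0.50 with adjusted p = 0.0796 (edgeR), and the shares of cells with Sfrp2 were 34.1% and 32.9% of MPC-like and 37.3% and 39.1% of fibroblast-like cells. Sfrp1 did not pass (-0.56 ± 0.24, adjusted p = 0.138 with edgeR), with fibroblast-like over MPC-like ratios of 1.68 and 1.24.

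Among the ligands, Wnt5a was 2.17 and 3.14 times as high in fibroblast-like cells (-1.33 ± 0.30, adjusted p = 0.00561 with edgeR and 0.169 with DESeq2). Wnt9a was 1.85 and 1.98 times as high (-0.94 ± 0.31, adjusted p = 0.0423 with edgeR and 0.469 with DESeq2). Wnt2 also passed, with adjusted p = 8.27e-06 (edgeR) and 5.79e-06 (DESeq2), with the levels given above. Wnt6 passed too, at 14.1 and 6.22 CPM in fibroblast-like cells against 0.405 and 1.59 CPM in MPC-like cells (adjusted p = 0.00187 with edgeR). Wnt10a was called on 12 and 2 UMIs in fibroblast-like cells (adjusted p = 0.00499 with edgeR and 0.0515 with DESeq2), and its direction turned with clusters in place of gates.

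Sfrp5 passed as lower in MPC-like cells, which had 0 UMIs in both libraries, but on few cells. Fibroblast-like cells held 312 Sfrp5 UMIs in the pool of replicates 1 and 2 but 16 in replicate 3 (137 and 6.63 CPM), so that the level was at least 452-fold and 18.1-fold that of MPC-like cells against a limit of 3 counts per library. Of all 598 Sfrp5 UMIs in the pooled library, 98.2% lay in 10 cells and 248 in a single cell. In that library, 4 fibroblast-like, 3 Schwann-like and 1 unsplit mesenchymal cell had 5 or more Sfrp5 UMIs, and together they held Wnt6 at 266 CPM against 1.94 CPM in all other kept cells, and Sfrp2 at 0 against 357 CPM. The part of such cells in the fibroblast-like values of Sfrp5 and Wnt6 was not tested.

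The rest of the pathway was read from a list of 54 genes, of which 46 were tested in the cells. By edgeR's adjusted p, 5 were higher and 12 lower in MPC-like than in fibroblast-like cells, beside 7.08% and 10.7% of all genes. DESeq2 called 1 higher and 8 lower, beside 577 and 1057 of all 12526 genes. Clusters in place of gates gave 2 and 9, beside 516 and 918 of all 12494 genes. Genes that serve ligand release were among the 5. Wls, the carrier of Wnts, was at 269 and 277 CPM in MPC-like and 162 and 166 in fibroblast-like cells (0.73 ± 0.17, adjusted p = 0.00696 with edgeR and 0.0203 with DESeq2), and Porcn, which acylates them, at 24.7 and 19.2 against 8.80 and 10.4 CPM (1.18 ± 0.28, adjusted p = 0.00714 with edgeR and 0.114 with DESeq2). The others were Rspo2, an amplifier of Wnt signals, at 15.7 and 17.1 against 3.08 and 1.24 CPM, Ccn4, a matricellular gene known as a Wnt target, at 141 and 155 against 48.8 and 80.4 CPM, and Nkd1, a feedback inhibitor, at 10.9 and 13.2 against 3.08 and 7.04 CPM. With DESeq2 these 3 did not pass, with adjusted p-values of 0.528, 0.0591 and 0.172. With clusters in place of gates, both genes of ligand release were lost, Wls with adjusted p = 0.0703 and Porcn with 0.324 (edgeR). Nkd1 was lost too (0.0655, edgeR), whereas Rspo2 and Ccn4 passed.

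The other R-spondins of this comparison had the opposite order. Rspo3 was at 5.97 and 5.99 CPM in MPC-like and 26.0 and 18.6 in fibroblast-like cells (-1.88 ± 0.35, adjusted p = 0.00122 with edgeR), and Rspo1 at 4.05 and 1.71 against 13.2 and 7.46 CPM. Ccn5 was at 55.2 and 36.1 against 242 and 329 CPM (-2.68 ± 0.22, adjusted p = 5.01e-07 with edgeR). The receptor Ror1, the membrane inhibitors Apcdd1 and Tpbg, the adaptor Dact1, the kinase Csnk1a1, the transcription factors Tcf7l1 and Tcf7l2, and the growth genes Myc and Ccnd1 were the remaining 9, with log2 fold changes between -1.64 and -0.42. Of the 12 lower, DESeq2 did not call Rspo1, Dact1, Myc and Tcf7l2. With clusters in place of gates, Apcdd1, the largest of the 9 changes, was at 0.014 and did not pass. Csnk1a1 (adjusted p = 0.0728, edgeR) and Dact1 (0.263, edgeR) did not pass there either, and Rspo1 had no value. Axin2, the feedback gene most used as a readout of the β-catenin branch, was looked up after the values were seen: its difference was -0.40 ± 0.35 and did not pass (adjusted p = 0.516 with edgeR).

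Antagonists were found together in part of the cells. In MPC-like cells, 51.1% of the pooled library and 59.9% of replicate 3 had a UMI of both Sfrp1 and Sfrp2, and 5.48% and 3.09% had neither Sfrp1 nor Dkk3. In fibroblast-like cells, 48.8% and 52% had both Sfrp1 and Sfrp4, whereas 16.4% and 19.1% of MPC-like cells did. These shares are unthinned, and MPC-like cells were deeper, with medians of 48748 and 52025 UMIs against 27119 and 32931.

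MPC-like cells also varied among themselves along their cartilage genes. In the 55 and 41 cells with the highest chondrocyte score, Sfrp1 was at 412 and 260.1 CPM against 717 and 436 CPM in the rest, and Sfrp2 at 143 and 194 against 536 and 420.3 CPM. Dkk3 had the other order, at 325 and 319 against 209 and 218 CPM. Wnt16 was at 2.46 and 1.39 CPM in those cells and at 13.9 and 10.97 CPM in the rest. Both sets are cells of the same 2 libraries, so no test was run.

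The tissue sections addressed where these genes lie around the wound. A spot is a small area that can hold several cells. Spots were grouped by fixed markers into wound mesenchyme (27 spots in A1 and 82 in B1), tendon (84 and 89), cartilage (268 and 210), bone (97 and 85), skeletal muscle (615 and 190), epidermis (170 and 295) and inflammatory myeloid areas (44 and 228). Smaller groups that entered no test were hair follicle (76 and 18), adipose (25 and 12), macrophage (29 and 10), fibroblast (19 and 8) and marrow (12, in B1 only). Ungated were 2050 and 1946 spots, and 51 and 10 were under the minimum of 100 UMIs. A group called highest below was so among the 7 tested groups only. In spots, fewer cells of a type and less RNA per cell cannot be told apart. The members summed to 3323 UMIs in A1 and 3313 in B1, 14 of the 39 had at least 100 UMIs over both sections, and 11 passed the filter. Members that were near absent from the cells still had probe counts: Wnt8a, with 1 UMI in the cells, had 13 and 18 UMIs, and Dkk4, with 0, had 8 and 9, so that counts of this size were not read as expression.

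By edgeR's test, 7 of the 11 tested members differed among the spot groups, beside 37.3% of the 4870 genes tested. They were Frzb, Dkk3, Fzd2, Sfrp1, Wnt5a, Sfrp2 and Wnt4. The 4 others were Wnt5b (adjusted p = 0.0601), Fzd1 (0.0873), Lrp6 (0.282) and Fzd6 (0.386).

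**Figure D4:**
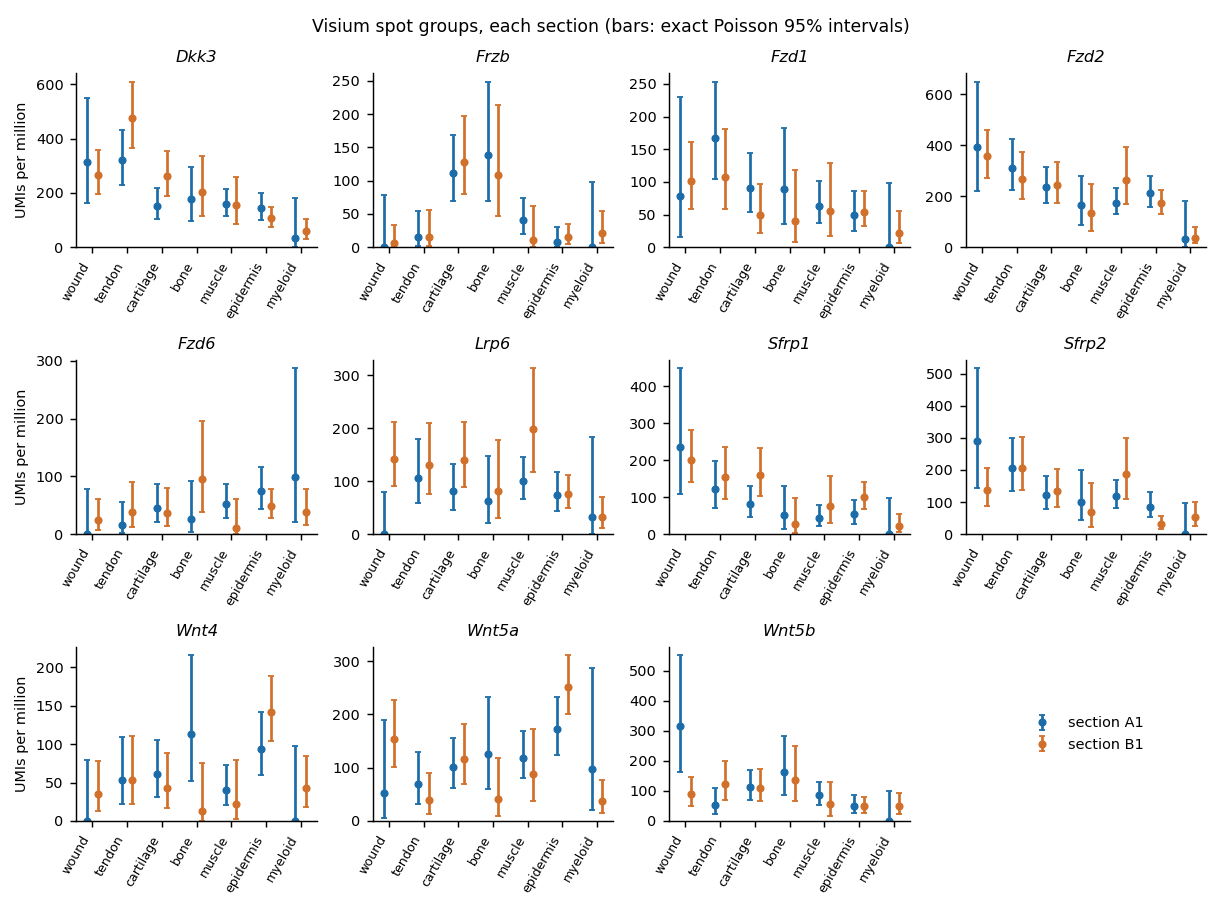
CPM (vertical axes from 0, each gene on its own scale) of the 11 members tested in 7 spot groups of sections A1 and B1, with exact Poisson 95% intervals. Sfrp1 and Fzd2 are at or above 202 CPM in wound mesenchyme of both sections and below 40 CPM in inflammatory myeloid spots, and Frzb is above 100 CPM in cartilage and bone of both sections.

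Wound-mesenchyme spots held their 8 markers, Tnc, Postn and related wound genes, at 3127 and 3220 CPM in sum, and tendon spots held these at 1272 and 2065 CPM. The 8 epidermis markers stood at 7514 and 8513 CPM in wound mesenchyme and at 5005 and 9013 CPM in tendon. The part of other tissue in the wound-mesenchyme values was not tested. In wound-mesenchyme spots, Sfrp1 was at 236 CPM (9 UMIs, 108 to 449) in A1 and 202 CPM (34 UMIs, 140 to 282) in B1. The other 6 groups lay between 0 and 159 CPM, below the wound-mesenchyme value of either section (1.505 ± 0.38 against the mean of the other groups, adjusted p = 0.00705 with edgeR). Both wound-mesenchyme intervals reach below 159 CPM. DESeq2 gave no adjusted p for Sfrp1. Fzd2 was at 394 and 356 CPM there, again the highest group in both sections (1.03 ± 0.27, adjusted p = 0.0105 with edgeR and 0.0300 with DESeq2). Without the filter on low counts, Fzd2 no longer passed (adjusted p = 0.140, edgeR). These were the 2 of 11 members called as higher, beside 2.24% of all genes. edgeR called 0 members lower, beside 1.38% of all genes, and 1 member, Frzb, was lower at an unadjusted p under 0.05. DESeq2 gave an adjusted p to only 2 members, 1 of them Fzd2, and called 0 of the 2 as lower.

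Wnt5b was at 315 CPM (163 to 551) in wound mesenchyme of A1, the highest group of that section, but at 89.1 CPM in that of B1, below tendon, cartilage and bone, and did not pass. Of 25 pathway genes tested in spots, 1 was lower in wound mesenchyme: Tnfrsf19, with 0 UMIs in those spots of both sections and adjusted p = 0.0230 (edgeR). With all genes kept, its adjusted p was 0.133 (edgeR), and DESeq2 gave no adjusted p for it.

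Tendon spots were higher than the mean of the other groups for Dkk3, Fzd1 and Sfrp2, 3 of the 11 members beside 3.2% of all genes, and edgeR called 0 lower, beside 2.09%, with 1 member, Wnt5a, lower at an unadjusted p under 0.05. Dkk3 stood at 320.0 and 476 CPM there (1.27 ± 0.24, adjusted p = 2.96e-05 with edgeR and 0.00328 with DESeq2) and was highest there among the 7 groups of each section, although the wound mesenchyme of A1 was close at 315 CPM. Fzd1 was at 168 and 107 CPM (1.17 ± 0.38, adjusted p = 0.0460 with edgeR), again above the other groups of either section. Sfrp2 was at 206 and 207 CPM (1.00 ± 0.31, adjusted p = 0.0366 with edgeR), where wound mesenchyme of A1 was higher at 289 CPM. The Fzd1 and Sfrp2 calls ended without the section as a block (adjusted p = 0.0794 and 0.108, edgeR), without the filter and with the stricter gate. DESeq2 gave Sfrp2 an adjusted p of 0.176 and Fzd1 none.

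Frzb, whose product is known from growing cartilage, was the 1 of 11 members called as higher in cartilage, beside 1.46% of all genes, and also the 1 called in bone, beside 3.16%. Lower calls in cartilage (0.739% of all genes) and bone (1.95%) included no member. It stood at 111 and 128 CPM in cartilage and 139 and 109 CPM in bone (2.39 ± 0.48, adjusted p = 0.000245, and 2.50 ± 0.58, adjusted p = 0.00160, edgeR). DESeq2 gave it an adjusted p of 0.00248 in bone and none in cartilage. In wound mesenchyme it had 0 and 1 UMIs. Bone spots held 8 cartilage markers at 4766 and 4030 CPM in sum, beside 2907 and 4410 CPM for their 5 bone markers. Skeletal muscle spots held the cartilage markers at 4519 and 6530 CPM. The part of cartilage in the bone values of Frzb was not tested. Bone spots were also higher for 5 pathway genes, which were looked up after their values were seen: Sost, the antagonist made by osteocytes, was at 152 and 434 CPM in bone, with Tnfrsf19 at 341 and 244, Wif1 at 114 and 149, Nkd2 at 177 and 67.9 and Ctnnb1 at 998.6 and 502 CPM. In A1, Sost was also at 106 CPM in cartilage and 108 in skeletal muscle, and edgeR called it higher in skeletal muscle too (adjusted p = 0.0387). Ctnnb1 in B1 was close in tendon, at 484 CPM. Nkd2 in bone of B1 rested on 5 UMIs, and wound mesenchyme of A1 held Nkd2 at 158 CPM. The Nkd2 call ended under DESeq2 (adjusted p = 0.119) and when the section was no block (0.0608, edgeR).

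Epidermis spots were higher for 2 ligands, beside 9.24% of all genes. Wnt4 was at 94.2 and 142 CPM (1.41 ± 0.34, adjusted p = 0.00102 with edgeR and 0.0899 with DESeq2), but bone of A1 was higher at 114 CPM on 9 UMIs. Wnt5a was at 172 and 251 CPM (1.31 ± 0.26, adjusted p = 3.55e-05 with edgeR and 0.0148 with DESeq2), above the other groups of either section. Of the 7 cell classes tested, Wnt4 was highest in keratinocyte-like cells and Wnt5a in fibroblast-like cells, but the few hair-follicle-mesenchyme-like cells (8 and 7), which entered no test, held more Wnt5a, at 249 and 376 CPM. Sfrp2 was lower in epidermis, at 86.0 and 30.2 CPM (-1.12 ± 0.35, adjusted p = 0.0138 with edgeR and 0.121 with DESeq2), beside 4.41% of all genes, and did not pass without the block (0.0513, edgeR). Inflammatory myeloid spots were lower for Fzd2 (32.7 and 37.5 CPM), Sfrp1 (0 and 21.4 CPM) and Dkk3 (32.7 and 59.0 CPM), beside 9.51% of all genes, and the higher calls there (16.6%) included no member. Of these 3, DESeq2 called Fzd2 (adjusted p = 0.0103) and not Dkk3 (0.0929) or Sfrp1 (0.156), and Sfrp1 also did not pass without the block (0.0906, edgeR), with the stricter gate or in deeper spots. In skeletal muscle, edgeR and DESeq2 each called 0 of the 11 members, beside 3.98% of all genes as higher and 2.09% as lower in edgeR, and 1 member, Lrp6, passed at an unadjusted p under 0.05 in edgeR.

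Sfrp1 was lower far from the wound mesenchyme than in it in both sections, though not at every step. In A1 its level went from 236 CPM in wound-mesenchyme spots to 114 CPM at 1 step on the spot grid, 138 CPM at 2 to 3 steps, 95.3 CPM at 4 to 7 steps, 55.0 CPM at 8 to 15 steps and 50.9 CPM at 16 steps or more. In B1 the same distances gave 202, 200, 139, 109, 60.6 and 71.9 CPM. Dkk3 went from 315 to 181 CPM in A1 and from 267 to 117 CPM in B1 between the wound-mesenchyme spots and the farthest ring. Fzd2 went from 394 to 190 CPM in A1, but in B1 its lowest level, 159 CPM, was at 8 to 15 steps. The median depth of a spot fell along the same rings, from 1394 to 369 UMIs in A1 and from 1824 to 322 UMIs in B1, and its part in these levels was not tested.

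**Figure D5:**
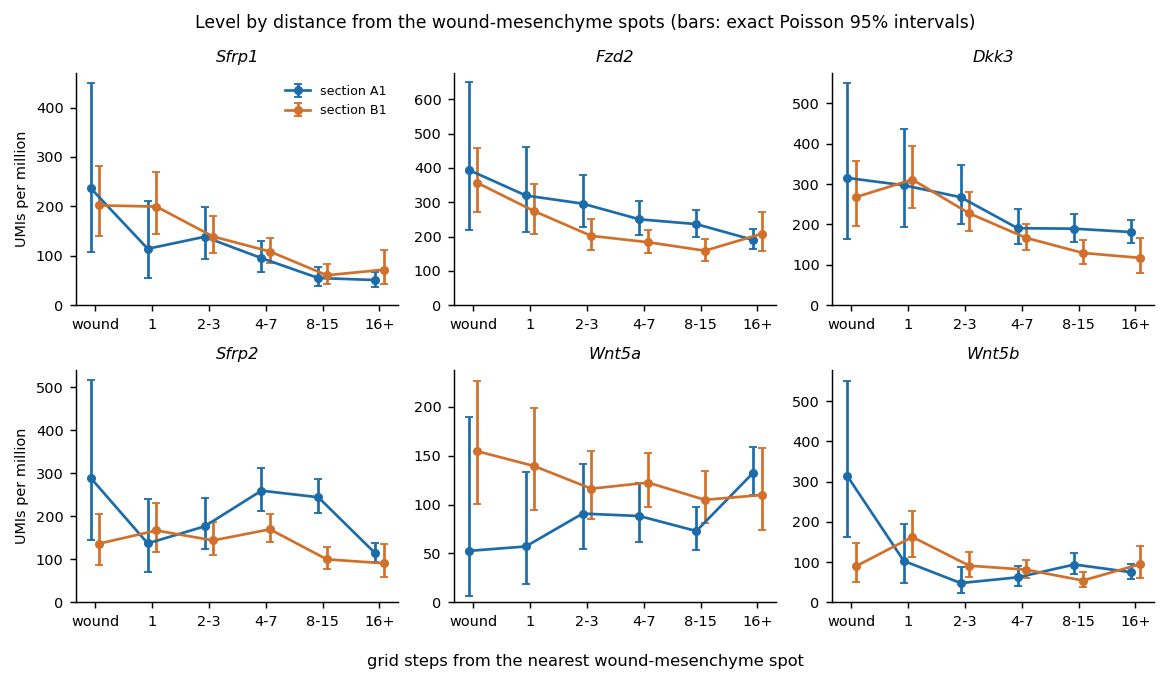
CPM of 6 members (vertical axes from 0) in rings of spots by their distance in grid steps from the nearest wound-mesenchyme spot, for sections A1 and B1, with exact Poisson 95% intervals. Sfrp1 is at 236 and 202 CPM in the wound-mesenchyme spots and at 50.9 and 71.9 CPM in the farthest ring. Sfrp2 is lowest in the farthest ring of both sections but does not fall steadily, and Wnt5b has no common order in the 2 sections.

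Sfrp2 did not fall steadily with distance from the wound, though it was lowest in the farthest ring of both sections. In A1 it was at 289 CPM in wound-mesenchyme spots, 137 CPM at 1 step, 260 CPM at 4 to 7 steps and 114 CPM in the farthest ring. In B1 it was at 137 CPM in wound-mesenchyme spots, 170 CPM at 4 to 7 steps and 91 CPM in the farthest ring. Sfrp2 was the most unevenly placed member by the deposited Moran's I, with 0.0518 in A1 and 0.0696 in B1. Moran's I is a score over the spots that is near 0 for a random pattern and higher where neighbours are alike. Those scores were at the 98.9th and 98.6th percentile of all genes of the section. Sfrp1 had 0.01995 and 0.0290, at percentiles 95.3 and 94.98, and Dkk3 0.0249 and 0.0242. Set against genes within 1.5 times its own UMIs only, Sfrp2 was at percentiles 96.5 and 96.2, Sfrp1 at 94.9 and 90.1, and Dkk3 at 89.2 and 75.7. By this measure Wnt10a ranked above Sfrp2 in A1, at 98.1 on 58 UMIs, but was at 81.6 in B1. Wnt3 (98.8 on 11 UMIs) and Wnt7b (97.5 on 23 UMIs) did so in B1, but were at 23.8 and 47.9 in A1. Wnt4 and Wnt5a, the ligands higher in epidermis, had scores between -0.00403 and 0.00666.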

How the data were processed

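The authors aligned the single-cell reads to mm10 with Cell Ranger 5.0.1 and processed the Visium sections for mm10 with Space Ranger 2.0.1, and deposited raw UMI counts per gene and barcode. They also deposited Moran's I, a score per gene and section, which was read as given. The members and gene lists were chosen with earlier results of these data known.

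Kept cells had 200 or more genes, a ribosomal share of 5% or more and a mitochondrial share up to 20%, those above the 99th percentile of UMIs were left out, and each was gated to the lineage whose fixed marker score led the next by 1.5 times. Mesenchymal cells were then split into MPC-like, fibroblast-like and other kinds by a lead of 1.2 times, which left 57 and 48 of them unsplit. Spots with at least 100 UMIs were gated by a Poisson excess of markers. No doublet caller was run, and cells with mixed markers stayed ungated. Counts were summed per class and library or per spot group and section, for groups of at least 20 cells or spots in each, and tested across all genes with edgeR 4.0.16 (R 4.3.3) by the quasi-likelihood test with TMM scaling, filterByExpr and Benjamini-Hochberg adjustment at 0.05. The library or section was a block, since the sums of 1 library or section come from the same preparation. The rule named all members, and pathway genes past the threshold in the MPC-like against fibroblast-like and wound-mesenchyme contrasts.

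Alternatives were DESeq2 1.42.0, no filter, no block, a stricter gate, clusters in place of gates (scanpy 1.11.5), no ribosomal minimum, deeper spots and leaving out each library or section. Thinning every cell to 3000 UMIs was chosen after seeing the data. Intervals are exact Poisson or Wilson (scipy 1.17.1). On simulated counts for MPC-like against fibroblast-like cells over 12526 genes, edgeR called 60% of genes raised 2-fold and 86% of those raised 4-fold, but 28% and 84% of genes lowered to 0.5 and 0.25 of their level. For wound mesenchyme over 4870 genes, it called 44% and 100% of raised genes but 14% and 38% of lowered ones. The simulated counts had the same preset spread for every gene, not estimated from these data. They held no difference between libraries or sections beyond depth, so these shares do not give the power in the real data.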

Additional observations from a re-analysis of the deposited data

Results flagged for a closer look

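Several members stood above the highest tested class in both libraries in classes with too few cells to test, which no comparison used. In Schwann-like cells (28 and 17 cells), Sfrp5 was at 151.7 CPM in the pooled library and 168 CPM in replicate 3, Wnt6 at 82.0 and 52.2, and Fzd3 at 77.9 and 63.8. In dendritic-like cells (16 and 8 cells), Wnt11 was at 52.5 and 304 CPM, against 17.7 and 19.6 in macrophage-like cells.

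In hair-follicle-mesenchyme-like cells (8 and 7 cells), Wnt5a was at 249 and 376 CPM, Fzd2 at 237 and 316, Dkk2 at 68.2 and 179.8, Fzd3 at 32.1 and 70.8 and Wnt11 at 24.1 and 109. In chondrocyte-like cells (12 and 4 cells), Fzd8 was at 45.2 and 78.7 CPM, and Fzd9, the gene with 3.54 and 1.96 CPM in MPC-like cells, at 30.7 and 30.3 CPM. These are values of few cells with no test.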

How the results depend on the processing

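Against fibroblast-like cells, 3 members were higher and 10 lower in MPC-like cells; DESeq2 gave 1 and 5, clusters in place of gates 1 and 5, thinned cells 1 and 4, and no filter 5 higher. Over all genes, the main fit called 887 higher and 1343 lower of 12526, and DESeq2 577 and 1057 of 12526. Clusters gave 516 and 918 of 12494 genes, thinned cells 319 and 432 of 6412, and no filter 1075 higher of 21925. DESeq2 lost Dkk3, Sfrp4, Sfrp5, Wnt10a, Wnt5a, Wnt5b and Wnt9a, and clusters held only 57 MPC-like cells of the pooled library against 219 by gate. With clusters, Wnt10a turned to 1.56 (and to -2.38 for fibroblast-like cells against the mean of the others), Fzd5 to -0.27, Wnt11 to 0.15, Wnt3 to 0.13 and Fzd6 to -0.036 on the log2 scale. Among classes, 27 of 28 tested members differed, and in thinned cells 12 of 12, the other 16 being untested. Of all genes, 10854 of 12526 differed, and in thinned cells 5205 of 6412. Calls of a class against the others numbered 67 higher and 20 lower; thinning gave 29 and 7, DESeq2 35 lower and no ribosomal minimum 4 lower. Calls over all genes moved as well. Those higher in MPC- and fibroblast-like cells were 4032 and 3564 of 12526, and 1631 and 1339 of 6412 after thinning. Those lower in macrophage- and T- or NK-like cells were 2352 and 2548 of 12526, and 852 and 995 of 6412 after thinning. DESeq2 gave 2845 and 2479 of 12526 there, and no ribosomal minimum 833 and 1324 of 12763. Among spot groups, 7 members differed and DESeq2 gave 4; the 2 higher in wound mesenchyme became 1 with DESeq2 and 1 without the filter. Of all genes, 1818 of 4870 differed, and with DESeq2 1299 of 4870. In wound mesenchyme, 109 of 4870 genes were higher, with DESeq2 56 of 1188 and without the filter 22 of 19170. Over all spot groups, 9 calls were higher and 4 lower; DESeq2 gave 4 and 1, and the stricter gate 5 higher. Of all genes, 156 and 450 of 4870 were higher in tendon and epidermis. DESeq2 gave 82 of 1660 and 277 of 4870 there, and the stricter gate 152 and 389 of 3651. Lower in inflammatory myeloid spots were 463 of 4870 genes, and with DESeq2 184 of 4870. The cause of these changes was not tested, except that thinned cells hold fewer counts and left 6 of the 13 untested.

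Without the replicate block, the calls lower over spot groups numbered 2 instead of 4, and Wnt9a was lost in MPC-like against fibroblast-like cells. By contrast, tendon held 1 member higher instead of 3, epidermis 0 lower instead of 1 and endothelial-like cells 1 lower instead of 2. Over all genes, calls in wound mesenchyme went from 109 to 44 higher and from 67 to 21 lower, in tendon from 156 to 87 and from 102 to 36, and in cartilage from 71 to 38 and from 36 to 3. Those lower in bone went from 95 to 48, in skeletal muscle from 102 to 58 and in epidermis from 215 to 133. Within a single library or section, which gives no test, all 3 and 10 members kept their direction, as did both members (2 of 2; 0 were lower) of wound mesenchyme, 66 to 67 of the 67 higher and 20 of 20 lower class calls, and 9 of 9 and 4 of 4 spot calls. The exception was Dkk3 in smooth muscle- or pericyte-like cells, at -0.91 without the pooled library and 2.48 without replicate 3. The stricter gate left too few smooth muscle- or pericyte-like cells and wound-mesenchyme spots (6 in A1) for a value.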

Other observations

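The Sfrp5-rich cells, picked for that gene and so described with no test, also held other genes in both libraries. The 8 such cells of the pooled library and the 3 of replicate 3 had Slc2a1, a glucose transporter, at 474 and 403 CPM against 28.3 and 21.0 CPM in all other kept cells, and Cldn1, a tight-junction gene, at 497.5 and 489 against 14.8 and 15.1 CPM. Itgb4 was at 497.5 and 633 against 8.61 and 6.97 CPM, and Sox10, a glial transcription factor, at 75.2 and 115 against 1.87 and 2.45 CPM. Col1a1 was lower, at 6444 and 920.3 against 19260 and 21859 CPM.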
